A study of Mus musculus with 3 samples.

Results

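The genes described here encode the proteins of the cytosolic ribosome. They were chosen by symbol alone, with no measured value: Rpl or Rps with a number and at most a short closing letter or digit, together with Rpsa, Rplp0, Rplp1 and Rplp2, but without the S6 kinase genes and without names marked as pseudogenes. The rule found 83 of the 33696 features, of which 51 encode proteins of the large subunit and 32 proteins of the small subunit. The study made 3 single-cell 3′ RNA libraries from kidneys of male mice: a young library (3 to 4 months, labelled as control), an aged library (20 months, given vehicle) and an aged D+Q library (20 months, given D+Q, the usual short name of the senolytic pair dasatinib and quercetin, which the labels do not spell out). The sources used here do not give the number of mice behind each library. With 1 library per group there is no test between groups: intervals cover counting error only, and whether a difference belongs to the age, the treatment, the animals or the library cannot be told apart.

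Each ribosome holds 1 copy of nearly every ribosomal protein, so cells make these proteins in matched amounts. The messages are abundant in most cells, and many start with a run of pyrimidines (the 5′ terminal oligopyrimidine or TOP motif), through which the mTORC1 kinase pathway controls their translation. Several members have a paralogue with a tissue-restricted or inducible pattern. Some free ribosomal proteins, such as those of Rpl5 and Rpl11, bind Mdm2 and so link ribosome assembly to p53.

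The libraries held 6027 to 8615 barcodes and 13944270 to 24346733 counts, and 5692 to 7698 cells were kept. The median total per barcode was lower in aged (1883 counts) than in young (2391) and aged D+Q (2299). Between 28 and 38 barcodes were shared by each pair of libraries. Cells were clustered without the ribosomal protein genes and named from marker genes. The kidney label was matched by the markers: proximal tubule-like cells, the largest class, numbered 4851 in young, 3904 in aged and 5082 after D+Q. Their makeup differed between libraries. Cluster 1, led by Cyp4a14 and Ehhadh, held 30.3% of the class in young and 1.97% in aged, while cluster 9, led by Cntnap5a, held 10.3% in young, 41.4% in aged and 34.5% after D+Q. Proximal tubule markers made up 1.48% to 1.61% of counts in that class and still 0.541% to 1.26% in the other classes compared here; free RNA was not removed, and its part in the results was not tested.

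Ribosomal protein genes gave a small share of the counts. Over all cells kept their share was 1.19% (young), 1.24% (aged) and 1.13% (aged D+Q), while the nuclear RNA Malat1 alone took 14.5%, 11.9% and 13.8%. Of the 83 members, 81 had at least 1 count, and 60 had a mean level of at least 100 CPM, that is, counts per 1e6 counts of the library. In proximal tubule-like cells the large subunit members had 1.40 to 1.45 times the counts of the small subunit members.

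Levels differed widely between members. A 3′ library counts each captured molecule once, whatever its length, so CPM was not divided by gene length. How reads matching several gene copies were counted is not known. The order of members below is therefore one of counts and need not be that of their messages. The members' products are needed in equal number. Rpl13 had the highest mean level over the libraries in all cells kept, at 380.4 CPM in young, 375.5 in aged and 355.8 after D+Q. Rps2, whose protein lies near the entry of the message channel, was at 396, 340.3 and 325 CPM, above Rpl13 in young and below it in the other libraries. Also among the highest were Rpl37a (295, 322 and 280.2 CPM) and Rps19 (243, 265 and 227), which is mutated in Diamond-Blackfan anaemia in humans. The 6 highest members held 14.9% of the summed level, and the median member had 140.5 CPM.

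At the other end, Rps6, the small subunit protein phosphorylated by S6 kinase, was at 29.1, 24.2 and 25.7 CPM in young, aged and aged D+Q. Rpl35 was at 15.9, 15.4 and 16.5 CPM and Rpl15 at 11.3, 10.1 and 11.5 CPM. These levels were far below the median member in each library. Many ribosomal protein genes have near-identical processed copies, and the sources used here do not say how reads matching several copies were counted, so the level of a single member is uncertain. Among features marked as pseudogenes, Rpl10-ps3 had 428, 289 and 335 counts and Rpl9-ps6 had 155, 113 and 118.

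Members with restricted expression elsewhere were at or near 0. Rpl3l, a paralogue of Rpl3 known from muscle, had 24, 6 and 18 counts in proximal tubule-like cells. Rpl10l and Rpl39l, paralogues known from the testis, had 0 counts in every library, which allows up to 0.138 CPM in young, 0.229 in aged and 0.156 after D+Q. These 3 members stayed under the floor, which asks for 30 counts summed over libraries and 5 CPM on average, which the other 80 members passed in proximal tubule-like cells.

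**Figure D1:**
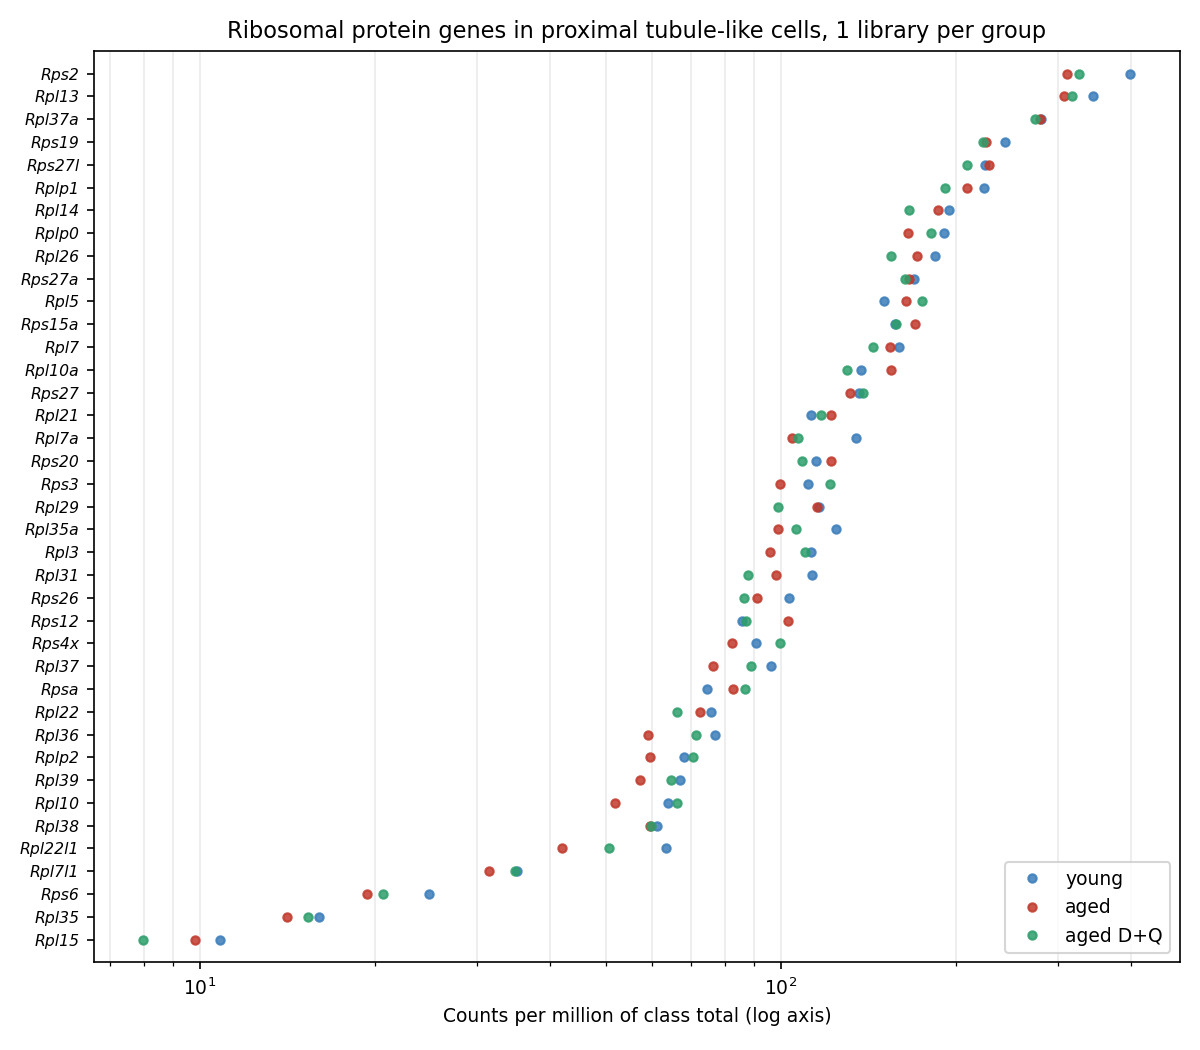
Level of 39 members of the text in proximal tubule-like cells, in CPM of the class total on a log axis, with 1 point per library (blue young, red aged, green aged D+Q) and members ordered by their mean. Rps2 and Rpl13 are highest in every library, Rps6, Rpl35 and Rpl15 lowest, and the 3 points of most members lie close together.

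The share of ribosomal protein counts lay near 1% in most tubule and endothelial classes and was higher in urothelial-like cells and in a haemoglobin-led cluster. The classes compared were the 5 that reached 50 cells per library. Proximal tubule-like cells held 1.12%, 1.06% and 1.05% (young, aged, aged D+Q), and endothelial-like cells held 1.14%, 1.07% and 1.11%. The thick ascending limb held 1.31%, 1.17% and 1.37%, the distal convoluted tubule 0.934%, 0.970% and 0.902%, and the connecting tubule with the principal cells 1.16%, 1.34% and 1.24%. By the mean over libraries the order ran from the thick ascending limb (1.28%) over the connecting tubule and principal cells (1.25%), the endothelium (1.10%) and the proximal tubule (1.08%) to the distal convoluted tubule (0.935%). The ranges over libraries of the first 2 overlapped, as did those of the endothelium and the proximal tubule, while the distal convoluted tubule lay below all others in every library.

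Urothelial-like cells, from the lining of the urinary tract, stood well above these classes, at 2.81% in 154 young cells, 2.68% in 14 aged cells and 3.45% in 78 aged D+Q cells. Cluster 17, led by haemoglobin genes and with Lyz2, Pf4 and Ighm among its leading genes, was given no cell type name; the labels describe a red cell lysis step. Its share was 2.60% (23 young cells), 5.51% (131 aged cells) and 4.10% (33 aged D+Q cells). Red cell markers, mainly haemoglobin genes, made up 3.97%, 1.33% and 2.73% of its counts and leukocyte markers 0.022%, 0.094% and 0.024%. The red cell markers were thus lowest in the aged library, where the ribosomal protein share was highest. Within the proximal tubule, the small cluster 2, led by Serpina1f, was high as well, at 3.29% (28 young cells), 3.40% (57 aged cells) and 2.94% (44 aged D+Q cells). Adipocyte-like cells had 1.01%, 0.796% and 0.582%, the last from 6 cells, and were the lowest named class in aged and aged D+Q but not in young. Across all 25 clusters the ribosomal protein share ran with the mitochondrial share (Pearson r 0.466, Spearman rho 0.678) and against the share of Malat1 (r -0.628, rho -0.875); these are shares of the same totals and the correlations are a description.

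**Figure D2:**
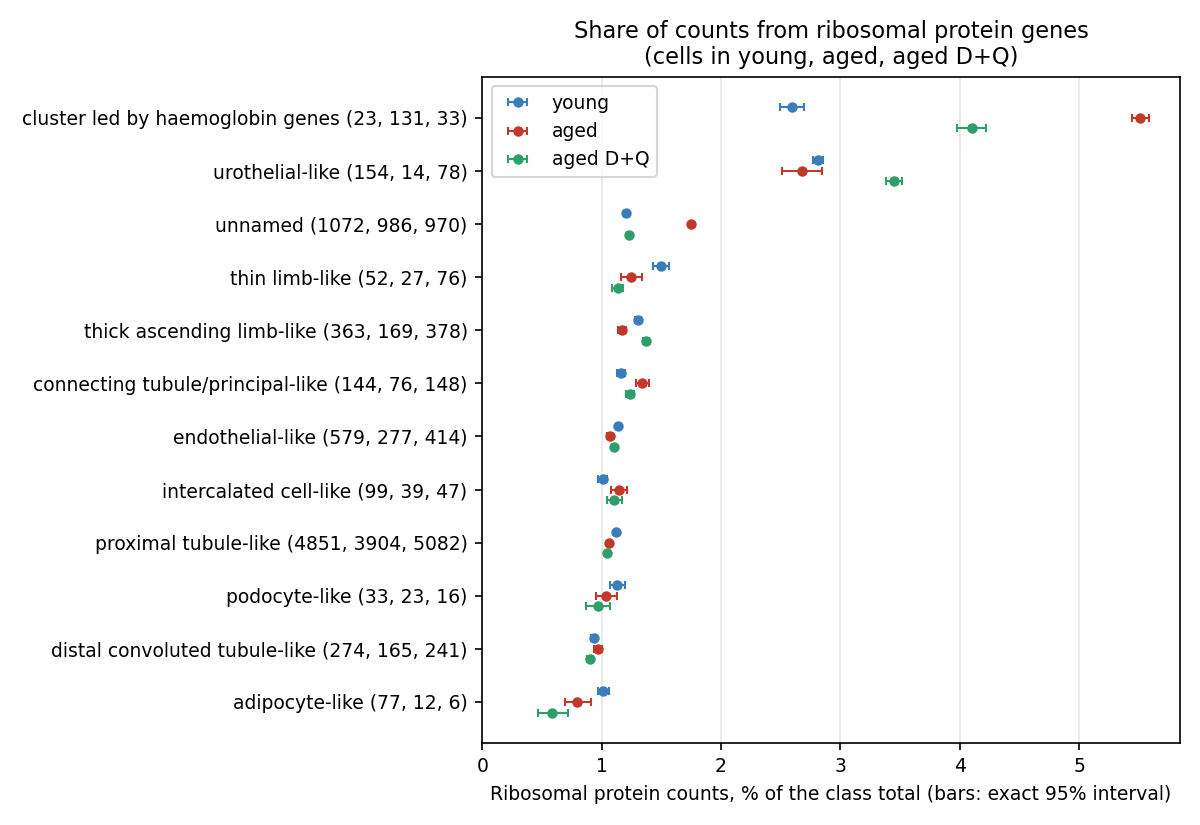
Ribosomal protein counts as a percentage of all counts in each class and library, with exact 95% intervals (counting error only) and the number of cells in young, aged and aged D+Q in brackets; the unnamed cells include the haemoglobin-led cluster. The haemoglobin-led cluster and the urothelial-like cells lie above 2.5% in every library, while the 5 compared classes lie between 0.902% and 1.37%.

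In proximal tubule-like cells, the members were slightly lower in the aged than in the young library, and this was spread over many of them. Their summed level had a log2 ratio of -0.084 (counting interval -0.096 to -0.071). The median member was at -0.101, beside a median of 0.060 over all 10776 genes above the floor. Of the 80 members, 63 lay below 0 and 17 above it, and the counting interval lay wholly below 0 for 32 members and wholly above it for 6. Intervals were not counted in this way over all genes, and they are narrow for members with many counts. None of the 80 was at least 1.5-fold higher (4.72% of all genes were) and 1 was at least 1.5-fold lower (3.75% of all genes). Large subunit members had a summed log2 ratio of -0.098 and small subunit members of -0.063.

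This difference depended on which cells were counted. In all cells kept, the summed level was higher in aged than in young (log2 0.061, interval 0.053 to 0.070), and without the 187 cells of the haemoglobin-led cluster the sign turned (-0.087, interval -0.096 to -0.078). Counting that cluster as proximal tubule-like turned the class's ratio to 0.157, and sorting single cells by their markers instead of by cluster turned it to 0.099. The 4 haemoglobin genes summed to 94.7, 101.5 and 69.5 CPM in the proximal tubule-like cells of the 3 libraries, and their part in the result was not tested.

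Within the class, strata of cells also differed in sign. Up to 5% mitochondrial counts, the ribosomal protein share was 0.912% (2031 young cells), 0.831% (2324 aged cells) and 0.795% (2103 aged D+Q cells). From 5 to 10% it was 1.03%, 1.07% and 1.02%, and from 10 to 25% it was 1.495%, 1.84% and 1.44%. From 25 to 50% it was 2.12% (456 young cells), 2.39% (174 aged cells) and 2.14% (522 aged D+Q cells). Aged cells lay between the other libraries in the lowest stratum and above both in the other 3. Of the 8 proximal tubule-like clusters, 4 had a lower and 4 a higher summed level in aged than in young. The lower ones (clusters 0, 5, 8 and 9) each held 11.2% to 41.4% of the aged class, with counting intervals below 0. The higher ones (clusters 1, 2, 7 and 21) each held 1.43% to 4.99%, and the intervals of clusters 1 and 2 included 0. In cluster 8, which expresses Slc5a12, the share was 1.07%, 0.946% and 1.03%, whereas in cluster 7, with the highest mitochondrial share, it was 2.30%, 2.69% and 2.22%. The median share over single cells was 1.00% in young, 0.861% in aged and 0.967% after D+Q.

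**Figure D3:**
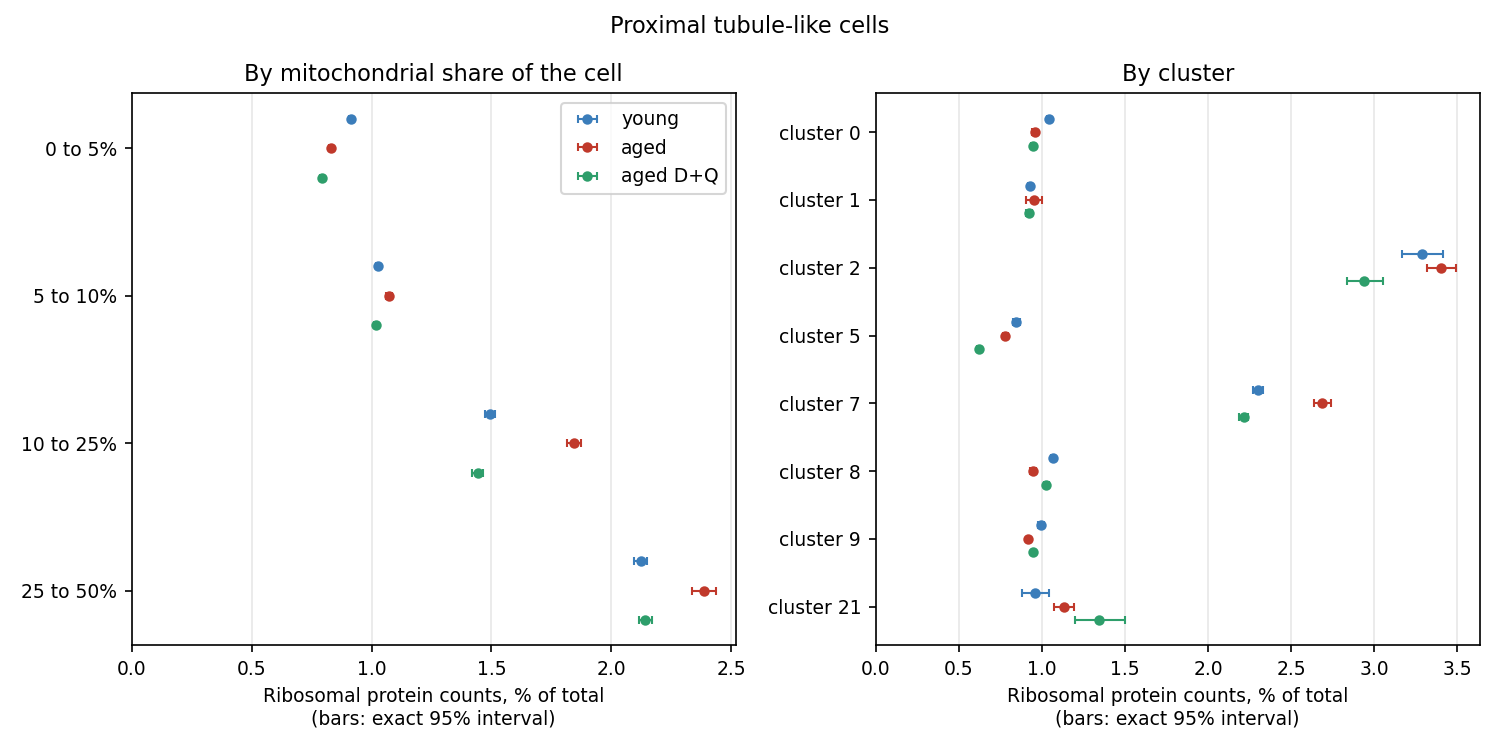
Ribosomal protein share of counts in proximal tubule-like cells, split by the mitochondrial share of the cell (left) and by cluster (right), per library with exact 95% intervals. Aged cells lie below young cells up to 5% mitochondrial counts and above them in the other strata, up to 2.39% against 2.12% at 25 to 50%.

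After D+Q, the summed level in proximal tubule-like cells was close to that of the aged library, with a log2 ratio of -0.016 (interval -0.028 to -0.003) and a median member at 0.000, beside -0.053 over all genes. Members lay on both sides, 41 above and 39 below 0, with intervals wholly above 0 for 12 and wholly below for 15. The intervals of all genes were not counted here either. No member was at least 1.5-fold higher (1.94% of all genes) and none at least 1.5-fold lower (2.15%). Against young, the aged D+Q library had a summed log2 ratio of -0.099 (interval -0.110 to -0.088) and a median of -0.095. Giving every cell the same weight changed the sign of D+Q against aged to 0.122, and thinning every cell to 1000 counts changed it to 0.131.

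The other compared classes did not share one direction. For aged against young the summed log2 ratio was -0.094 (interval -0.130 to -0.058) in the endothelium and -0.158 (-0.209 to -0.108) in the thick ascending limb. It was 0.055 (-0.005 to 0.115) in the distal convoluted tubule and 0.210 (0.139 to 0.281) in the connecting tubule and principal cells. In the last class, 14 of 77 members passed 1.5-fold upward in aged (15.1% of all genes did) and 3 passed it downward (15.8% of all genes), so the upward count was near the background. The mitochondrial share of these cells was 13.4%, 19.0% and 20.0% in young, aged and aged D+Q, and its part in the result was not tested. For D+Q against aged it was 0.049 (0.010 to 0.088) in the endothelium and 0.229 (0.178 to 0.280) in the thick ascending limb, but -0.106 (-0.169 to -0.043) in the distal convoluted tubule and -0.115 (-0.185 to -0.045) in the connecting tubule and principal cells. In the thick ascending limb, 8 of 80 members were at least 1.5-fold higher after D+Q (11.2% of all genes) and 1 at least 1.5-fold lower (17.5%). That class joins cluster 11 (1.12%, 1.05% and 1.09% ribosomal protein counts) and cluster 15 (2.12%, 1.75% and 1.99%), and cluster 15 gave 75 of the 363 young cells, 30 of the 169 aged cells and 125 of the 378 aged D+Q cells.

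Single members differed from the median member. Rps12, from the small subunit, and Rpl10a, from the large subunit, were higher in the aged library. Rps12 was at 85.5, 103.0 and 87.2 CPM (log2 0.268 for aged against young, -0.241 for D+Q against aged), and Rpl10a at 137, 154 and 130.0 CPM (0.171 and -0.248). In both the aged value was the highest, and the intervals of the ratios did not include 0. For D+Q against aged, the ratio of Rps12 kept its sign under 13 of 14 alternative settings (-0.36 to 0.029). That of Rpl10a kept its sign under all 14 (-0.372 to -0.096). Further positive ratios of aged against young belonged to Rpsa (0.148), which also serves as a laminin receptor, Rpl5 (0.123), Rps15a (0.118), Rpl21 (0.111) and Rps20 (0.085). The counting intervals of Rpl21 and Rps20 included 0 and that of Rpsa began at 0.

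Rpl22l1, the paralogue of Rpl22, was the single member past 1.5-fold. It was at 63.5 CPM in young (interval 59.1 to 68.1), 42.1 in aged (37.6 to 46.9) and 50.6 after D+Q (46.7 to 54.7), with log2 ratios of -0.592 (-0.783 to -0.406) and 0.266 (0.072 to 0.463). Its excess over the 1.5-fold limit was small, since that limit lies at 0.585 on the log2 scale, and no member passed it with doublets left in. It was also lower in aged in endothelial-like cells (49.0, 24.6 and 64.3 CPM) and in the thick ascending limb (73.3, 24.6 and 59.8 CPM, the aged value from 9 counts), and level in distal convoluted tubule-like cells (46.1, 46.5 and 43.2 CPM). Within the proximal tubule, 5 of 8 clusters had less in aged than in young.

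Rps2, the highest member in these cells, was at 399 CPM in young, 310.3 in aged and 326 after D+Q (log2 -0.364, interval -0.435 to -0.294, and 0.072). Its aged D+Q value stayed near the aged one. The aged value was below the young one in the endothelium (377 and 319 CPM), the thick ascending limb (391 and 295) and the distal convoluted tubule (298 and 230.0) too, and above it in the connecting tubule and principal cells (321 and 373). Other members with low ratios were Rpl36 (-0.383), Rpl7a (-0.366), Rpl37 (-0.334), Rpl35a (-0.329) and Rpl10 (-0.304).

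Rpl10, whose protein joins the large subunit late in its assembly, had the largest positive ratio of D+Q against aged, at 63.9, 51.8 and 66.4 CPM (0.358). Over all cells kept its ratios were smaller, at -0.031 for aged against young and 0.142 for D+Q against aged. There Rpl10 had 1443, 854 and 1386 counts and its copy Rpl10-ps3 had 428, 289 and 335. How the split of reads between the 2 bears on these ratios was not tested. Rps3, which lines the entry of the message channel, was at 112, 99.7 and 122 CPM (0.285), and Rps4x, the X-linked copy of Rps4, at 90.5, 82.4 and 99.5 CPM (0.273). Each of these 3 had its lowest value in the aged library, although for Rps4x the interval of aged against young included 0. The ratio of aged against young kept its sign under 13 of 14 alternative settings for Rps3 (-0.269 to 0.026) and for Rps4x (-0.24 to 0.079). That of Rpl10 kept its sign under all 14 (-0.421 to -0.07). Further positive ratios belonged to Rpl36 (0.275), Rplp2 (0.245) and Rpl37 (0.216). Negative ones, beside those of Rpl10a and Rps12, belonged to Rpl29 (-0.226), Rpl14 (-0.166), Rps20 (-0.162), Rpl31 (-0.158) and Rpl26 (-0.148). Both comparisons use the aged library, so a value that is high or low in it moves the 2 ratios in opposite directions.

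**Figure D4:**
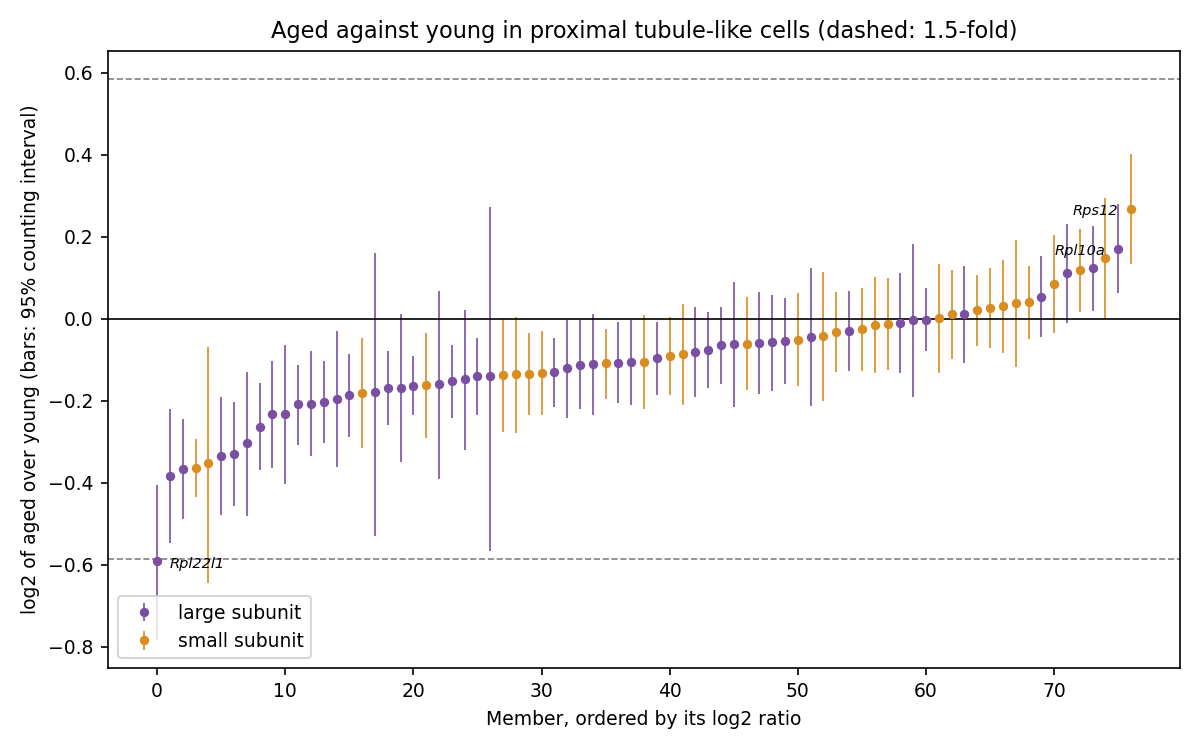
Log2 ratio of aged over young for 77 of the 80 members above the floor in proximal tubule-like cells, in order of the ratio, with 95% counting intervals; purple marks the large and orange the small subunit, and dashed lines mark 1.5-fold. Most members lie between 0 and -0.4, Rpl22l1 alone passes the lower line at -0.592, and Rps12 lies highest of those drawn at 0.268.

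The stalk proteins, which recruit translation factors to the large subunit, were all lower in aged than in young, with counting intervals below 0, and differed in sign for D+Q against aged. Rplp0 was at 190.5, 165 and 181 CPM in proximal tubule-like cells, Rplp1 at 224, 209 and 191 CPM and Rplp2 at 68.0, 59.4 and 70.4 CPM. Rps27a, made as a fusion with ubiquitin, was at 169, 166 and 164 CPM, and the intervals of all 3 ratios between libraries included 0. Rpsa was at 74.7, 82.7 and 86.8 CPM.

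Paralogue pairs split their counts in different ways between cell classes. In the Rps27 pair, the form Rps27l (known as a p53 target) had more counts than Rps27 in the proximal tubule: 225, 228 and 209 CPM against 136, 132 and 138. Its share of the pair's counts was 62.2% in young (interval 60.8 to 63.7), 63.4% in aged (61.6 to 65.2) and 60.2% after D+Q (58.7 to 61.6). In urothelial-like cells the order was turned, with Rps27l at 136, 27.2 and 171 CPM against Rps27 at 329, 109 and 391.6, and its share was 29.2% (24.0 to 34.9) in young and 30.4% (23.3 to 38.2) in aged D+Q. Only 5 counts of the pair came from aged urothelial-like cells. In young and aged D+Q the urothelial intervals lay below those of every other class shown. In the endothelium the share was 56.9%, 51.3% and 55.7%.

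The coding sequences of the pair show how far the 2 genes differ between start and stop codon. How well reads of a 3′ library separate them was not tested. They are taken from the GENCODE M21 transcripts (GRCm38), each read 5′ to 3′ from start to stop codon, with capitals at the positions where the pair differs. Rps27 lies on the minus strand at chr3:90212725-90213615 and Rps27l on the plus strand at chr9:66946175-66949357, from the start to the stop codon with introns. Both are 255 bases long and align with no gap, with 61 differing positions and 76.1% identity.
Rps27: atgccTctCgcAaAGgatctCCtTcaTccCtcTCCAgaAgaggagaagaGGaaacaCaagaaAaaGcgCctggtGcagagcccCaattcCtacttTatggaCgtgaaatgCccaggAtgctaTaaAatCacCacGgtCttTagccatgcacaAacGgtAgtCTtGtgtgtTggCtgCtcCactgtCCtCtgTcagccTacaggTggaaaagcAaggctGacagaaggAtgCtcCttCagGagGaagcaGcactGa
Rps27l: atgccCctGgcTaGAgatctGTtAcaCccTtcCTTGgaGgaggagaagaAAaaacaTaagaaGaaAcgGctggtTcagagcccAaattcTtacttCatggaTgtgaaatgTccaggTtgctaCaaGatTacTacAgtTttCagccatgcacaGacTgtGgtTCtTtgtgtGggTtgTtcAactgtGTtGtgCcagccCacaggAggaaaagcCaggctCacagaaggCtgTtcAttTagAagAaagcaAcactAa
The differences are spread along the whole sequence.

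In the Rpl22 pair, Rpl22l1 took 45.6% of the pair's counts in young (43.2 to 48.0), 36.7% in aged (33.5 to 40.0) and 43.3% after D+Q (40.7 to 45.9) in proximal tubule-like cells. The aged interval lies below both others. Rpl22 itself, which binds RNA outside the ribosome as well, was at 75.8, 72.5 and 66.4 CPM. The share was also lowest in aged in the endothelium (38.8%, 25.6% and 50.6%) and in the thick ascending limb (45.6%, 20.5% and 44.7%). In the connecting tubule and principal cells it was 50%, 32.3% and 32.1%, so the aged D+Q value lay beside the aged one there, and in the haemoglobin-led cluster it was 44.0%, 36.2% and 31.6%. The distal convoluted tubule had 45.5%, 42.5% and 43.4%. Intervals overlap in these 3. In the endothelium the aged interval (16.4 to 36.8, from 20 Rpl22l1 counts) overlaps the young one (32.7 to 45.3) but not the aged D+Q one (42.5 to 58.7). The aged interval of the thick ascending limb (9.8 to 35.3) lies below both others. The coding sequences of this pair are 70.2% identical over 369 aligned bases.

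The other pairs were dominated by 1 gene. Rpl7 was at 160, 154 and 144 CPM in the proximal tubule and its paralogue Rpl7l1 at 35.2, 31.5 and 34.9, with 55.2% identity of the coding sequences. Rpl3, near the peptidyl transferase centre, was at 113, 95.9 and 110 CPM, against 1.96, 0.765 and 1.44 for Rpl3l (73.9% identity). Rpl10 and Rpl39 had 63.9 and 67.1 CPM in young beside 0 counts for Rpl10l (84.8% identity) and Rpl39l (85.3%).

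**Figure D5:**
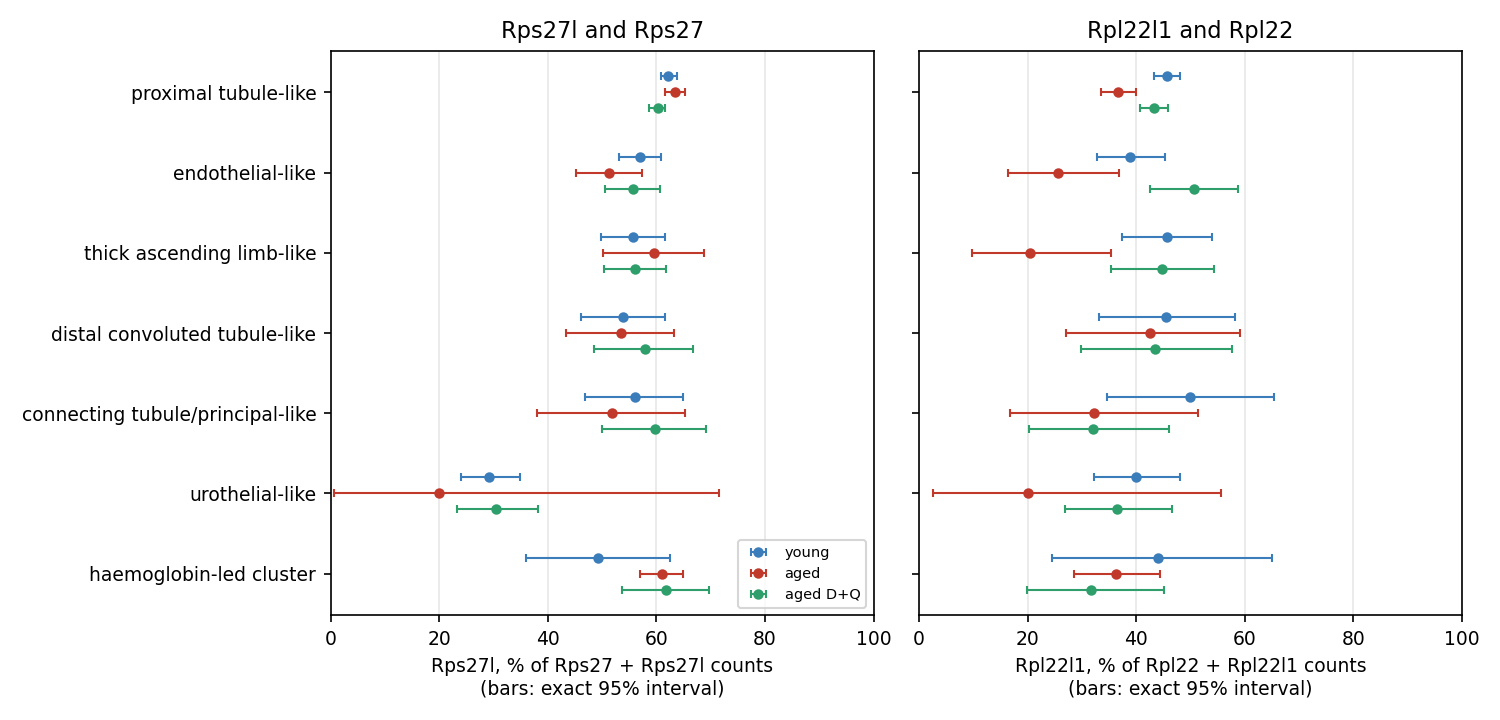
Share of Rps27l in the counts of Rps27 and Rps27l (left) and of Rpl22l1 in those of Rpl22 and Rpl22l1 (right), per class and library, with exact 95% intervals. Rps27l has 60.2% to 63.4% of the pair in the proximal tubule and 29.2% and 30.4% in urothelial-like cells of the young and aged D+Q libraries, and Rpl22l1 has 36.7% in aged against 45.6% in young proximal tubule-like cells.

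Some further members differed between classes relative to the other members. Compared with the proximal tubule, the largest shifts were for Rpl15 in the endothelium (log2 -0.527, mean over libraries) and the thick ascending limb (0.602), for Rpl38 in the distal convoluted tubule (-0.672) and in the connecting tubule and principal cells (-0.667), for Rps26 in the last (-0.662) and for Rpl3 in the distal convoluted tubule (0.540). Rps27l was relatively low in the endothelium (-0.305) and the thick ascending limb (-0.480). Those of Rpl15, Rpl38 and Rps26 rest on few counts: Rpl15 had 4 to 11 counts per library in the endothelium, Rpl38 had 15 to 18 in the distal convoluted tubule, and Rps26 had 7 in the aged connecting tubule and principal cells. In urothelial-like cells Rpl3 was relatively high (1.16), at 590 CPM in young, 652.5 in aged and 705 after D+Q.

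Pyrimidine runs at annotated start sites were counted because they mark TOP messages. Of the members, 63 had 75 annotated start sites in the RefSeq promoter table (GRCm38.p6), which reaches 250 bases before each start. Read on the coding strand, 17.3% of these starts began exactly with a C and at least 4 further pyrimidines (C or T), against 2.5% of the 32776 other starts. A run of at least 8 pyrimidines within 10 bases of the start was found at 40.0% of the members' starts and 13.6% of the others. A match is a description of letters, and annotated starts can be a few bases from the used ones. Windows of 15 bases before and 15 bases from the start are shown for members that the results turn on, with the longest pyrimidine run near the start in capitals.
Rps27 (chr3:90213634-90213663, minus strand): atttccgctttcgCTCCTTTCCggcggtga
Rplp2 (chr7:141447636-141447665, plus strand): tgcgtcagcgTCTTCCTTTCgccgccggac
Rps2 (chr17:24720048-24720077, plus strand): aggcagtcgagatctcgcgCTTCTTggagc
Rpl22l1 (chr3:28805493-28805522, plus strand): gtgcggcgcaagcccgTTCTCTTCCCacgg
Rps27l (chr9:66946071-66946100, plus strand, the first of its annotated starts): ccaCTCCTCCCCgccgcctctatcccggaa
The run spans the annotated start in Rps27 and Rplp2, begins after it in Rps2 and Rpl22l1, and ends before it in Rps27l.

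Other genes of the translation machinery were read from fixed lists in proximal tubule-like cells. Of 38 initiation factors, none passed 1.5-fold in either comparison, with medians of -0.040 for aged against young and 0.069 for D+Q against aged. Over all genes, 4.72% were at least 1.5-fold higher and 3.75% lower in aged, and 1.94% and 2.15% for D+Q against aged. Eif4g3 and Eif4g1, scaffolds of the cap-binding complex, had ratios of 0.547 and 0.488 in aged, and Eif2b4, a subunit of the exchange factor of eIF2, had -0.565 and then 0.517 after D+Q. Of 7 elongation factors above the floor, none passed, beside the same shares of all genes. Eef1a1, which brings tRNAs to the ribosome, was at 811, 938 and 797 CPM and Eef2, which moves them on, at 151, 128 and 140 CPM. These 2 factors lay on opposite sides of 0 for aged against young and for D+Q against aged, which share the aged library, and both below 0 for D+Q against young (-0.025 and -0.110).

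Of 16 other TOP messages, 1 was at least 1.5-fold lower in aged, beside 3.75% of all genes. It was Slc25a5, a mitochondrial ADP/ATP carrier (327, 211 and 258 CPM). Tpt1, another abundant TOP message, was at 352, 383 and 336 CPM. Of 37 ribosome biogenesis genes, 1 was at least 1.5-fold lower in aged (3.75% of all genes), namely Rrs1, needed for large subunit assembly (34.9, 20.6 and 23.7 CPM). For D+Q against aged 2 were at least 1.5-fold higher (1.94% of all genes), Nop2 and Polr1c (0.621 and 0.588). The median of this list was -0.057 for aged against young and 0.124 for D+Q against aged.

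In the list of mTORC1 and TOP control, 1 of 22 genes was at least 1.5-fold higher in aged, beside 4.72% of all genes. It was Mtor, the kinase itself, at 231, 359 and 239 CPM. Larp1, which binds TOP messages, was at 55.4, 50.6 and 83.8 CPM, a log2 ratio of 0.726 for D+Q against aged, and Mtor had -0.587. In the list of ribosome stress and p53 genes, 3 of 10 were at least 1.5-fold higher in aged, beside the same 4.72% of all genes: Gdf15 (8.31, 17.3 and 13.9 CPM), Btg2 (7.41, 14.8 and 8.63) and Zmat3 (10.5, 18.1 and 16.4). The median of the list was 0.318 for aged against young and -0.169 for D+Q against aged. Cdkn1a, the p53 target that stops the cell cycle, was at 3.99, 4.21 and 4.08 CPM.

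The 77 mitochondrial ribosomal proteins, which build the separate ribosome of the mitochondrion, had a median log2 ratio of -0.103 for aged against young and 0.007 for D+Q against aged, beside -0.101 and 0.000 for the cytosolic members. The 70 nuclear-encoded respiratory chain genes above the floor had -0.207 and -0.047. The 13 mitochondrially encoded genes had -0.437 and 0.352.

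Over the 15 sums of 5 classes and 3 libraries, the genes outside the rule whose log2 CPM ran most like the summed members were Eef2 (Pearson r 0.905), Dnajc3 (0.897), Eef1a1 (0.870), Hmgb1 (0.860), Ech1 (0.839) and Cox8a (0.838), among 1736 genes with at least 100 CPM. The median r of the 57 members at that level, each of which is part of the sum, was 0.748. The sums of a library share their depth and preparation.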

How the data were processed

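Values are unnormalised UMI counts, as deposited by the authors for every gene and barcode. The submitters' processing notes name the builds GRCm39 and mm10 without their role, and the sources used here do not name the aligner. Gene symbols and barcodes were taken as deposited. Barcodes with over 50% mitochondrial counts (82 to 385 per library) were left out, as were doublets by Scrublet score quantile at 0.8% per 1000 barcodes (253 to 532), since its automatic threshold called 0. Cells were clustered with scanpy 1.11.5 on 2000 variable genes without the members, 30 components, 15 neighbours and a resolution of 1, into 25 clusters, and named from markers of 17 classes, so names can differ from those of the study. Counts were summed per class and library and scaled to CPM of the class total, and log2 ratios used a prior of 0.5 counts. Ratios have exact conditional binomial, levels exact Poisson and shares exact Clopper-Pearson intervals, all at 95%. The depth of the 5 compared classes is 190291 counts (aged connecting tubule and principal cells) to 12507706 (aged D+Q proximal tubule). Intervals cover counting error only. No paired or replicate analysis exists, with 1 library per group. TMM scaling used edgeR 4.0.16 in R 4.3.3, and the ratio functions were tested on simulated data.

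Members named were the 8 largest ratios in each direction per comparison in proximal tubule-like cells at 30 CPM and 20 counts, the 6 highest and 6 lowest levels, 2 per class by relative level, and fixed paralogues and special members. Some members that this rule names are not reported here. The members and lists were chosen with earlier results of these data known.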

Additional observations from a re-analysis of the deposited data

Results flagged for a closer look

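The summed level of ribosomal protein genes differed in direction between cell classes in the same pair of libraries, with counting intervals on opposite sides of 0. For aged against young the log2 ratio was 0.210 in the connecting tubule and principal cells, and -0.084 in the proximal tubule, -0.094 in the endothelium and -0.158 in the thick ascending limb. For aged D+Q against aged it was 0.049 in the endothelium and 0.229 in the thick ascending limb, and -0.016 in the proximal tubule, -0.106 in the distal convoluted tubule and -0.115 in the connecting tubule and principal cells. The proximal tubule value for D+Q against aged kept its sign under only 8 of 14 alternative settings (-0.154 to 0.131). Within the thick ascending limb, D+Q against aged was 0.054 in cluster 11 (interval -0.007 to 0.116) and 0.189 in cluster 15 (0.095 to 0.283). Cluster 15 gave 30 of the 169 aged cells and 125 of the 378 aged D+Q cells of that class. The difference between classes was not tested, because each group has 1 library.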

How the results depend on the processing

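No paired analysis was possible because each group has 1 library. For aged against young in proximal tubule-like cells, the summed log2 ratio kept its sign under 13 of 14 alternative settings. It was -0.111 with a mitochondrial limit of 25%, -0.098 with no doublets left out, -0.162 in clusters shared by every library, -0.118 without mitochondrially encoded counts, -0.164 as a mean over cells, -0.121 with median-of-ratios scaling, -0.135 with TMM scaling and -0.170 with thinned cells. It was 0.099 with the marker gate per cell. For D+Q against aged it kept its sign under 8 of 14: -0.002 with no doublets left out, -0.154 with the marker gate and -0.059 over members of at least 200 CPM, but 0.003 in shared clusters, 0.015 without mitochondrially encoded counts, 0.122 as a mean over cells, 0.023 with median-of-ratios scaling, 0.039 with TMM scaling and 0.131 with thinned cells. For D+Q against young it was -0.118 (limit of 25%), -0.054 (marker gate), -0.159 (shared clusters), -0.042 (mean over cells), -0.039 (thinned) and -0.135 (members of at least 200 CPM). Members at least 1.5-fold lower in aged were 0 with no doublets left out, the marker gate, a prior of 5 counts, thinned cells or members of at least 200 CPM, and 2 with no floor, against 1. Members at least 1.5-fold higher in aged were 1 with the marker gate, and after D+Q 1 with no floor, against 0. The cause of these shifts was not tested.

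Chosen after seeing the data: counting the haemoglobin-led cluster in the class gave summed ratios of 0.157, -0.237 and -0.080, with 1 member at least 1.5-fold higher and 0 lower in aged and 1 lower after D+Q. Leaving out the cluster of high mitochondrial share gave -0.044 and -0.063, with 0 members lower in aged. All cells kept had 0.061, -0.135 and -0.074, and without the haemoglobin-led cluster -0.087, 0.000 and -0.087. Of 46 ratios of named members, 29 kept their sign under all 14, among them both ratios of Rpl22l1 (-0.795 to -0.473 and 0.185 to 0.363). Scaling moved the median of all genes for aged against young from 0.060 to 0.023 (median of ratios) and 0.009 (TMM). Depth limits the smaller classes most: the aged connecting tubule and principal cells hold 190291 counts, and Rpl22l1 in the aged thick ascending limb rests on 9.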

Other observations

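Of 5 ribosomal proteins whose names fall outside the rule, 4 passed the floor in proximal tubule-like cells. Their median log2 ratio was 0.044 for aged against young and -0.16 for D+Q against aged, beside -0.101 and 0.0 for the members. Fau, made as a ubiquitin-like fusion, was at 191, 192 and 180 CPM in young, aged and aged D+Q, Rack1, a scaffold on the small subunit, at 98.7, 104 and 89.2 CPM, and Rpl36al at 86.4, 82.6 and 80.3 CPM.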
